A study of Drosophila melanogaster with 12 samples.

Results

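Ovary RNA was compared between 2 fly stocks labelled wild type, W1118 and attp2. The members were the 4 libraries named for those stocks, 2 each, of 12 in the series, with all 15446 genes listed in the count table. The series compares ovaries in which nxf2, a nuclear RNA export factor variant that acts in piRNA-guided silencing, was mutated or knocked down, with and without a tethered Panx protein. It holds 6 groups of 2 libraries. The attp2 and W1118 groups carry no nxf2 lesion by their labels. Of the other groups, 1 was labelled nxf2 -/- (here the mutant, made with CRISPR/Cas9), 1 was an nxf2 knockdown restricted to the germline, and 2 carried Panx tethered as FL10B in nxf2 +/- or nxf2 -/- flies. All flies were yeast-fed and given an age of 3 to 5 with no unit. Total RNA was taken with Trizol and turned into cDNA with primers chosen to avoid ribosomal RNA, and a gel-cut size range was sequenced on an Illumina instrument. The labels do not say whether the 2 libraries of a group come from separate flies, so the p-values reflect only how far these libraries spread, which may be technical.

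W1118 is a laboratory stock named for a deletion allele of white, the eye pigment transporter gene. attP2 is the name of a landing site on the third chromosome into which RNA interference transgenes are commonly placed, and flies with the empty site often serve as controls for such knockdowns. The ovary holds germline cells, which become the oocyte and its nurse cells, and somatic follicle cells, which surround them and make the eggshell: first the vitelline membrane, then the chorion. Wild-type stocks can differ in many genes through their separate genetic backgrounds.

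The 4 libraries held 11100934 and 11260925 counts for attp2 and 3811630 and 6467850 for W1118, against 3811630 to 11260925 over all 12. Levels are given in CPM, a gene's count relative to the library's total, scaled with TMM factors. A gene passed the test at an adjusted p under 0.05 in edgeR's quasi-likelihood test over 8638 genes with enough counts, 1698 listed genes having no count in any library. With no count in either library of a group, the limit set by 3 counts was 0.288 CPM in W1118 and 0.138 CPM in attp2, for counting error only. The ovary label was checked against marker genes. The 8 germline markers summed to 6210 to 6390 CPM in attp2 and 5305 to 5375 in W1118. The 9 follicle cell markers summed to 20080 to 22813 and 11282 to 12006. Of these 9, 2 passed higher in W1118 and 4 lower. Cp38 alone held 10234 and 8746 CPM in attp2 and 2082 and 1977 in W1118. Replicates were unequally tight. Among 6772 genes at 5 CPM or more in all 4 libraries, the median absolute log2 difference between replicates was 0.219 in attp2, with 56 genes over 2-fold apart, and 0.0858 in W1118, with 0 over 2-fold apart. The fit gives both groups the same spread.

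The stocks differed in more genes than not. Of the 8638 genes, 4790 (55.5%) passed, 2174 (25.2%) higher in W1118 and 2616 (30.3%) lower. At least 2-fold differences were found for 1711 genes (19.8%), 575 higher (6.66%) and 1136 lower (13.2%), and at least 4-fold differences for 122 higher (1.41%) and 382 lower (4.42%). The median absolute log2 difference over all tested genes was 0.52, and the median signed difference was -0.07. In 3069 genes (35.5%) both W1118 libraries lay above both attp2 libraries, and in 3556 (41.2%) both lay below.

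**Figure D1:**
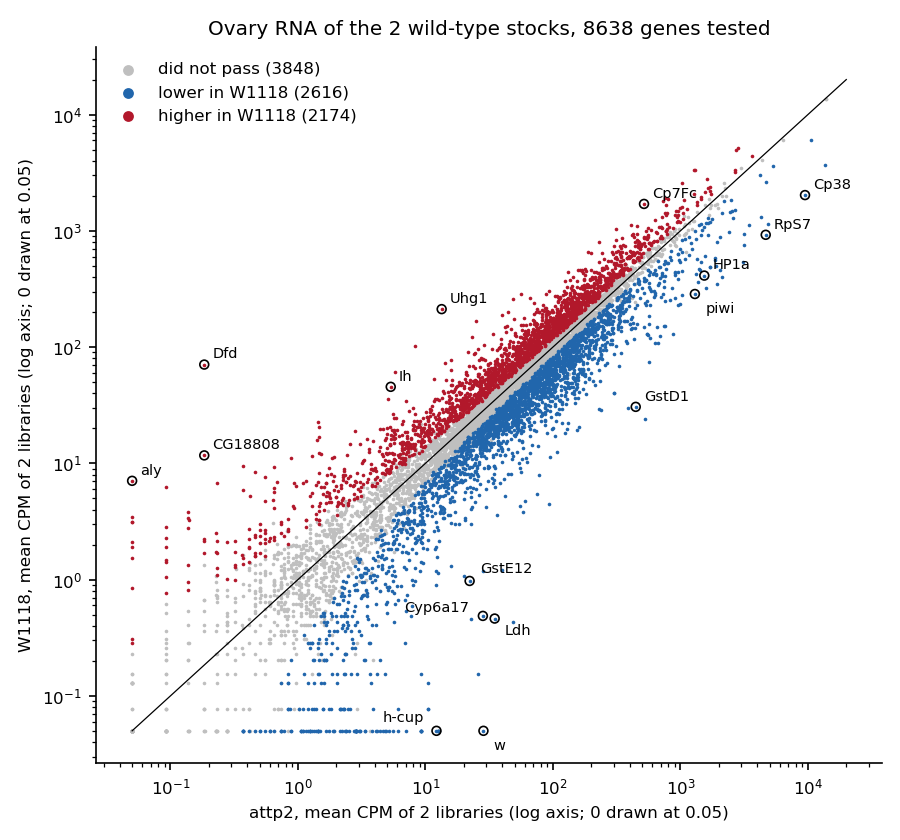
Mean level of each of the 8638 tested genes in attp2 (horizontal) and W1118 (vertical), in CPM on log axes, with genes that passed higher in red and lower in blue. The line marks equal levels. GstD1, Ldh, h-cup and w lie far below it, and Dfd, CG18808 and Uhg1 far above it.

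The white gene, for which W1118 is named, separated the stocks. The level of w (white) was 30.9 and 26.1 CPM in the attp2 libraries, and no read was counted in either W1118 library. Against the limit set by 3 counts over the W1118 group, w was at least 98.9-fold lower. It stood at 28.3 and 26.8 CPM in the knockdown, at 0.559 and 0.26 in the mutant, and at 3.31 to 4.16 in the libraries with tethered Panx. So w RNA was near the attp2 level in the knockdown libraries. The libraries with tethered Panx lay between that level and W1118. The mutant lay around the W1118 limit of 0.288 CPM and cannot be told apart from W1118. The body pigment gene y (yellow) was too low to be tested: it stood at 1.11 and 0.641 CPM in attp2 with no count in W1118, at least 3.05-fold lower. Of 23 eye and body colour genes, 17 were tested, 5 passed higher (29.4%) and 5 lower (29.4%). These shares were near the 25.2% and 30.3% of all tested genes. Fewer of the colour genes were higher without either W1118 library.

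The study's own genes differed between its wild-type stocks. The nxf2 level was 36.1 and 49.1 CPM in attp2 and 69.4 and 68.7 CPM in W1118, so both W1118 libraries were higher, by 0.70 on the log2 scale (SE 0.14, adjusted p = 0.000827, edgeR). It was lower in the knockdown, at 19 and 17.2 CPM, and in the mutant, at 29.8 and 33.6 CPM, than in either wild-type stock. Panx (listed as CG9754), which joins Piwi to the machinery of heterochromatin, stood at 131 and 156 CPM in attp2 and 47.3 and 44.1 in W1118. That is 3.15-fold lower in W1118 (log2 -1.65, SE 0.11, adjusted p = 6.23e-08, edgeR). The groups did not overlap. The level of piwi, the nuclear Argonaute protein that carries piRNAs to nascent transcripts, was 1591 and 1005 CPM in attp2 and 279 and 294 in W1118, or 4.53-fold lower in W1118 (edgeR: log2 -2.18, SE 0.32, adjusted p = 0.000492). The attp2 replicates lay well apart for piwi, yet both were above both W1118 libraries.

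Among 20 factors of piRNA-guided transcriptional silencing, all tested, 6 (30%) were higher in W1118 and 9 (45%) lower, with a median log2 of -0.19. Over all tested genes 25.2% were higher and 30.3% lower. The gene of the heterochromatin protein HP1a fell: 1543 and 1536 CPM in attp2 against 395 and 430 in W1118 (log2 -1.90, SE 0.09, adjusted p = 8.39e-09, edgeR). Its relative HP1c stood at 182 and 244 against 44.2 and 49.3 CPM. The histone methyltransferase gene egg fell from 175 and 156 to 88.5 and 81.7 CPM, while its cofactor wde rose from 137 and 140 to 321 and 329. The piRNA silencing factor sov (listed as CG14438) also rose, from 212 and 146 to 450 and 480 CPM. Members of this group thus passed in both directions within 1 enzyme pair.

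Of 21 genes for piRNA cluster transcription and export, 6 were higher (28.6%) and 7 lower (33.3%), with a median log2 of -0.16. These shares were near the 25.2% and 30.3% of all tested genes. The lower count was 4 without either W1118 library. The THO subunit thoc5 fell from 169 and 173 to 65.6 and 60 CPM. Ars2, a cap-binding cofactor, rose from 328 and 284 to 568 and 609 CPM, and the corepressor gene CtBP from 283 and 251 to 475 and 478. Of 27 genes of piRNA biogenesis and the nuage, the perinuclear site of piRNA production, 9 were higher (33.3%) and 9 lower (33.3%). Their median log2 was 0.11. AGO3, the ping-pong partner that is loaded with sense piRNAs, rose from 87.1 and 133 to 265 and 277 CPM (log2 1.30, SE 0.16, adjusted p = 1.2e-05, edgeR). fs(1)Yb, which organises piRNA processing in somatic follicle cells, fell from 7.97 and 7.6 to 0.772 and 1.22 CPM. Its relative SoYb rose from 74.1 and 87.3 to 136 and 139 CPM. Of 17 tested nuclear RNA export factors, 5 were higher (29.4%) and 6 lower (35.3%), also near the shares of all tested genes. Both counts were smaller without either W1118 library. The higher count was smaller without attp2 replicate 2, and was 3 with each library's trend with transcript length removed.

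The eggshell genes divided by layer. Chorion genes, which encode the outer shell laid down last, were mostly lower in W1118: of 16 tested among 17 listed, 12 were lower and 2 higher, with a median log2 of -1.52. Genes of the vitelline membrane, the layer made first, were mostly higher: of 15, 9 were higher and 2 lower, with a median of 0.64. Fewer of the 15 were lower without W1118 replicate 2. Over all tested genes the median was -0.07, with 25.2% higher and 30.3% lower. In bulk tissue, fewer cells of a type or stage and less RNA per cell cannot be told apart.

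Cp38 stood at 10234 and 8746 CPM in attp2 and 2082 and 1977 in W1118 (log2 -2.23, SE 0.17, adjusted p = 3.12e-07, edgeR). Cp36, its neighbour in the X-linked chorion cluster, stood at 1805 and 1636 against 491 and 484. In the cluster on chromosome arm 3L, Cp19 fell from 3220 and 2934 to 562 and 509 CPM and Cp16 from 749 and 573 to 119 and 97.2. The low and the high group were well separated for each of these 4 genes. Cp18 of the same cluster differed between the attp2 libraries themselves, at 559 and 3673 CPM, with 408 and 396 in W1118. Its log2 of -2.40 passed with all libraries, and without attp2 replicate 2 it was -0.48 (adjusted p = 0.376, edgeR). The call was also lost without either W1118 library, at -2.42 and -2.37. The 2 chorion genes that were higher lie in the X-linked cluster: Cp7Fc at 391 and 645 against 1690 and 1715 CPM, and Cp7Fb at 244 and 403 against 499 and 518. The call for Cp7Fb was lost without any 1 of 3 libraries, attp2 replicate 1 or either W1118 library, and its log2 of 0.65 was 0.33 without attp2 replicate 1.

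Vm26Ac rose from 10.1 and 13.3 CPM in attp2 to 54.3 and 52.6 in W1118 (log2 2.19, SE 0.16, adjusted p = 1.9e-07, edgeR). Vm32E rose from 168 and 176 to 452 and 422 CPM, and Vm34Ca from 1081 and 981 to 2685 and 2513. The smaller rises of psd, from 162 and 170 to 286 and 284 CPM, and of Vml, from 1089 and 978 to 1711 and 1504, also passed. All 5 of these vitelline membrane genes had separate groups. The paired genes Vm26Aa (log2 -0.20) and Vm26Ab (log2 -0.34) did not pass. ndl, a protease gene of follicle cells that starts dorsoventral patterning in the eggshell, rose from 297 and 285 to 642 and 660 CPM. The yolk protein gene Yp3 fell from 877 and 559 to 454 and 418 CPM. Of 11 genes of yolk and dorsoventral patterning, 2 were higher (ndl and snk) and 4 lower (Yp2, Yp3, ea and boca). The higher count was 1 without attp2 replicate 2 or without W1118 replicate 1. With the trend with transcript length removed, 3 were higher and 2 lower.

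**Figure D2:**
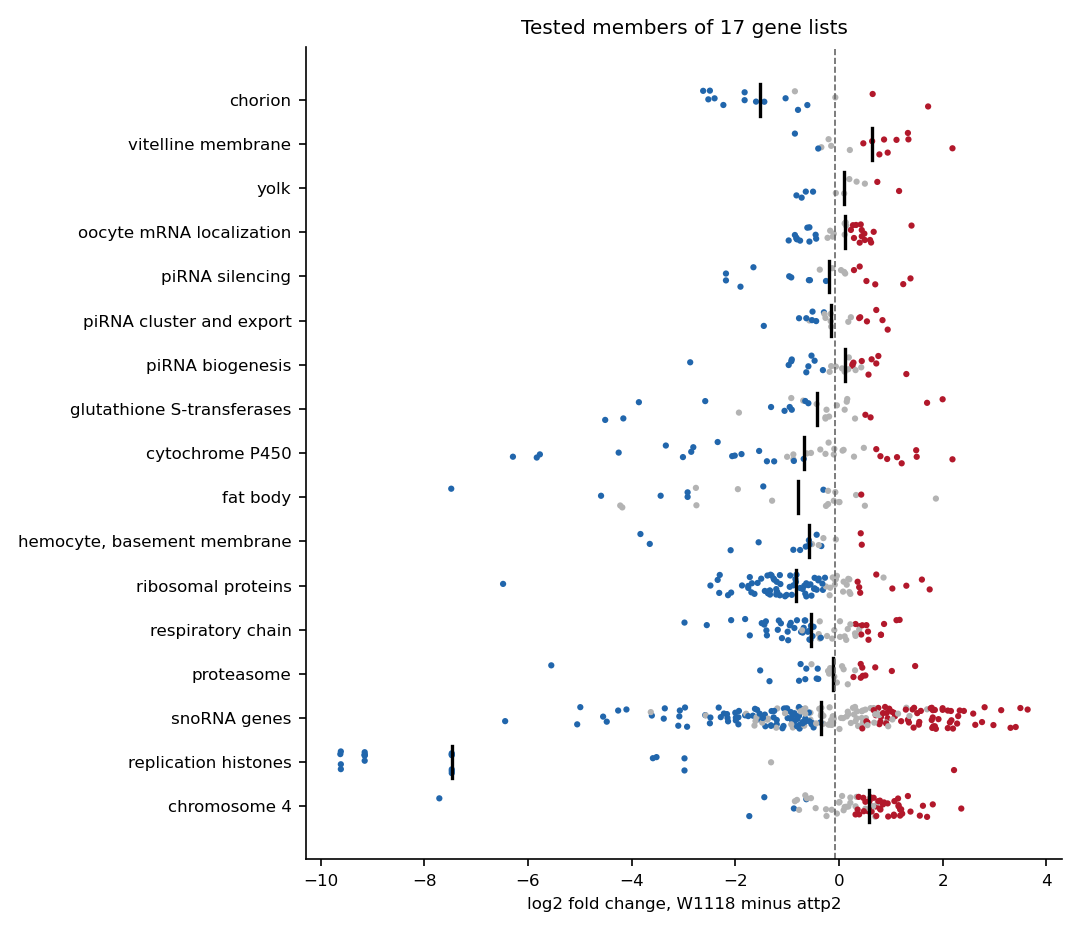
Log2 difference W1118 minus attp2 of each tested member of 17 gene lists, with members that passed higher in red, lower in blue and the others in grey. Black bars are list medians and the dashed line is the median over all tested genes. The chorion, ribosomal protein and histone medians lie left of the line, and the vitelline membrane and chromosome 4 medians right of it. Fitted values of genes with no count in a group depend on the small count the fit adds.

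Detoxification genes held some of the widest gaps between the stocks. GstD1, which encodes a glutathione S-transferase that conjugates toxins, was measured at 418 and 474 CPM in attp2 and 29.1 and 32.1 in W1118. It was 14.5-fold lower (log2 -3.86, SE 0.13, adjusted p = 8.9e-10, edgeR). GstE12 (listed as CG16936) stood at 21.1 and 23.3 CPM against 1.03 and 0.918, GstD9 at 13.3 and 12.3 against 2.31 and 1.99, and the microsomal family member Mgstl at 34.6 and 41.4 against 13.4 and 16.7. Each was low in both W1118 libraries. GstD2 rested on 2 reads in W1118, so that the ratio of attp2 to W1118 levels was 19.2, with a 95% counting interval from 5.14 to 161. GstZ1 (listed as CG9362), an enzyme of tyrosine breakdown, went the other way, from 4.36 and 3.39 to 16.5 and 14.7 CPM. Over all tested genes 25.2% passed higher and 30.3% lower. Of 37 glutathione S-transferase genes, 27 were tested, 4 passed higher (14.8%) and 10 lower (37%), with a median log2 of -0.43. These counts were 2 and 5 without W1118 replicate 2, and the higher count was 2 without attp2 replicate 1.

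Cytochrome P450 genes, whose enzymes oxidise toxins and hormones, also leaned lower. Of 82 listed, 39 were tested, with a median log2 of -0.68. Of the 39, 8 (20.5%) were higher and 17 (43.6%) lower, against 25.2% and 30.3% of all tested genes. Without W1118 replicate 2 these counts were 5 and 9. Cyp6a17, known in flies for a role in temperature preference, stood at 28.7 and 27.6 CPM in attp2 and 0.514 and 0.459 in W1118 (log2 -5.83, SE 0.30, adjusted p = 1.17e-08, edgeR). Cyp305a1 fell from 57.1 and 40.9 to 10.5 and 12.5 CPM, while Cyp6v1 rose from 53.2 and 43.2 to 103 and 119. Of the lower members with almost no W1118 reads, Cyp9b2 stood at 8.07 and 4.12 CPM against 0 and 0.153, a count ratio of 63.4 with a 95% counting interval from 11.2 to 2521. CG42240 was 12.9-fold lower, at 411 and 364 against 28.8 and 31.1 CPM.

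**Figure D3:**
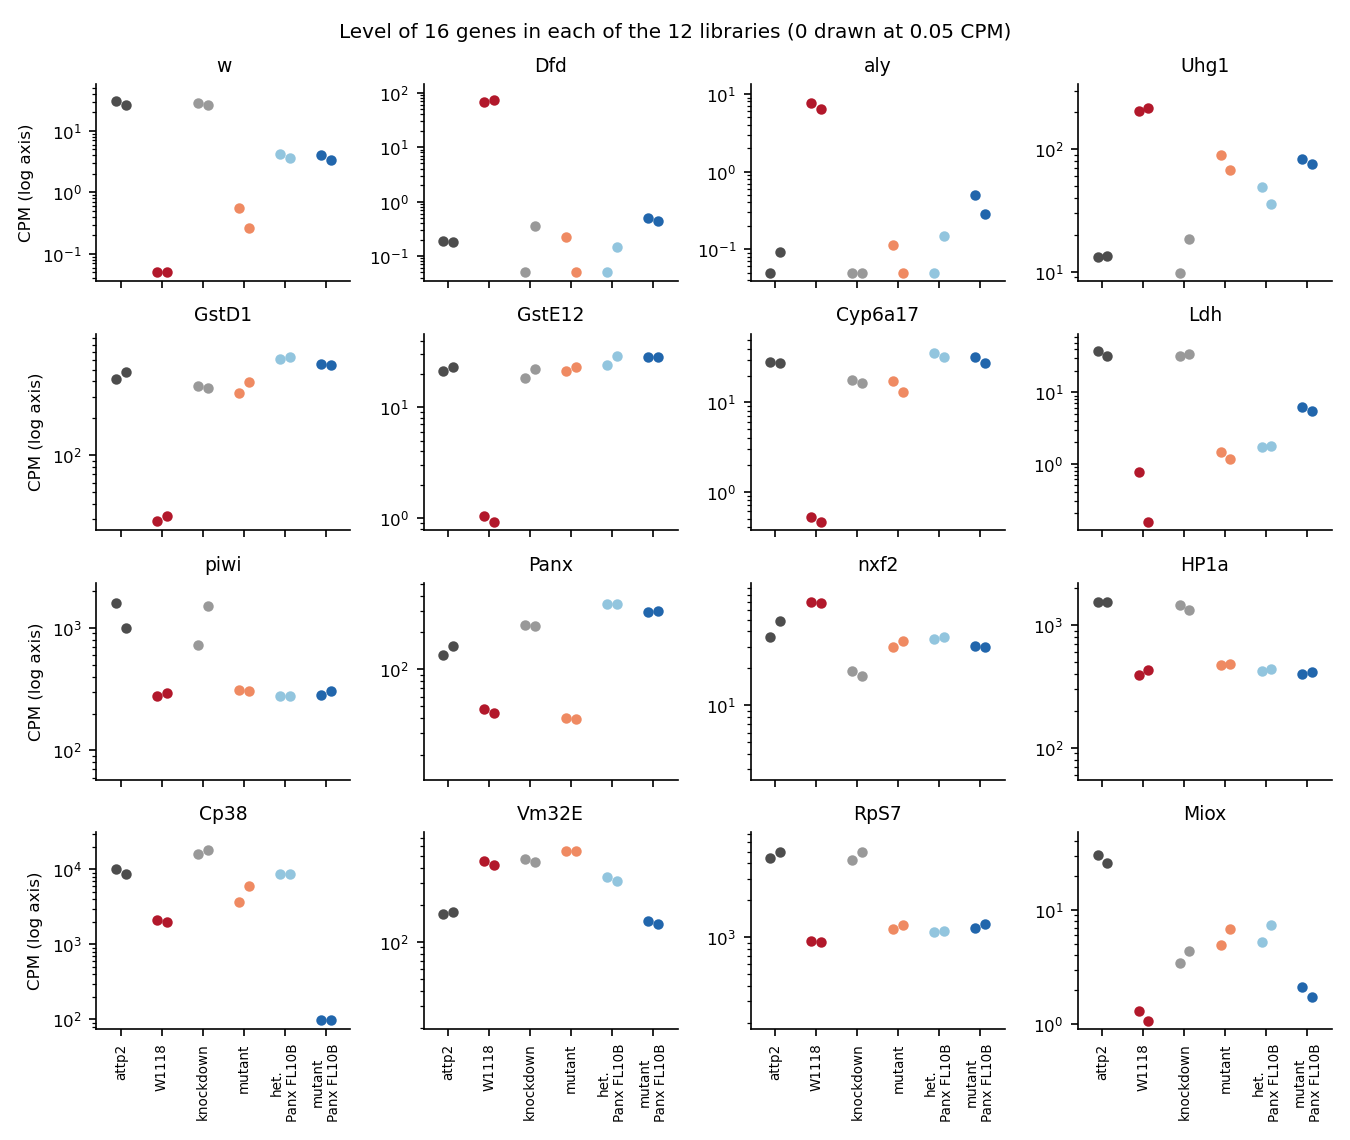
Level of 16 genes in each of the 12 libraries, in CPM on log axes, 1 point per library. GstD1, GstE12 and Cyp6a17 are low in W1118 alone of the 6 groups and Dfd is high in W1118 alone, whereas Ldh, RpS7, piwi and HP1a are high in attp2 and the knockdown and low in the other 4 groups.

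The widest rise was that of Dfd, a homeotic gene of head segments. It had 4 reads in the attp2 libraries together (0.185 and 0.183 CPM) and stood at 67.9 and 73.5 CPM in W1118 (log2 8.46, SE 0.40, adjusted p = 6.04e-09, edgeR). In the knockdown and mutant libraries it reached at most 0.354 CPM. Dh44, a gene for a diuretic hormone, had no read in attp2 and 3.09 and 3.21 CPM in W1118, at least 22.8-fold higher. It was the only gene with no attp2 count and 3 CPM or more in both W1118 libraries. aly, which switches on male meiosis genes in the testis, had 1 read in attp2 and 7.72 and 6.43 CPM in W1118, a count ratio of 150 with a 95% counting interval from 26.1 to 6006. Of 6 testis markers, aly was the only 1 tested: Mst84Dc and dj were at 0 in all 4 libraries, and the 6 summed to 0.556 to 1.19 CPM in attp2 and 6.58 to 7.72 in W1118.

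Other genes with wide rises in W1118 were also higher in the mutant than in the knockdown, by amounts that were not always alike. CG18808 rose from 0.185 and 0.183 to 11.1 and 12.2 CPM, and stood at 10.6 and 8.31 in the mutant. Uhg1, a host gene whose introns carry snoRNAs, rose from 13.2 and 13.5 CPM to 212 ± 7.25 (SD, n = 2; log2 3.99, SE 0.23, adjusted p = 5.51e-08, edgeR). The Y-linked transcript CR41507 rose from 0.927 and 0.824 to 10.5 and 11.6 CPM, and CR40354 from 1.76 and 1.1 to 21.6 and 23.6. Ih, a gene for a pacemaker ion channel, rose from 5.19 and 5.49 to 45.3 and 45.8 CPM. The mutant held 13.5 and 10.4 CPM of Ih and the knockdown 7.36 and 6.01, and the rises of Ih and Uhg1 passed as larger between the wild-type stocks. Separate groups were a condition for naming the largest rises, so the lack of overlap here was set by the choice. Of the 282 snoRNA genes, whose RNAs guide chemical modification of ribosomal RNA, 221 were tested, with 62 higher and 80 lower, so the class went both ways. snoRNA:Me28S-G1083d rose from 7.32 and 9.15 to 98.2 and 107 CPM.

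Among the widest falls, Ldh (listed as ImpL3), which makes lactate at the end of glycolysis, stood at 37.8 and 31.9 CPM in attp2 and 0.772 and 0.153 in W1118. It was 86.7-fold lower (log2 -6.44, SE 0.33, adjusted p = 1.14e-08, edgeR). CG6225 stood at 50.9 and 45.7 CPM against 0.257 and 0.612. h-cup, a gene known for late expression in spermatids, stood at 12.1 and 12.4 CPM with no count in W1118, at least 42.6-fold lower. CG9903 had 2 W1118 reads against 24.8 and 26.5 CPM in attp2, a ratio of 134 with a 95% counting interval from 36.9 to 1108. epsilonTry, a trypsin gene, stood at 10.8 and 10.1 CPM against 0.257 and 0, and Tsp42Ec at 10.3 and 10.5 against 0 and 0.153. Tsp42Ec overlaps the noncoding gene CR42785, and no source used here says whether counting used strand. In all, 22 genes had no W1118 count and 3 CPM or more in both attp2 libraries. Of these, 9 were copies of histone genes, all 22 were at 1 CPM or more in both knockdown libraries, and 21 were at or under 1 CPM in both mutant libraries.

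Replication histone copies, which supply chromatin in dividing cells and lie in a tandem array, made the longest run of neighbours that moved together. Of 111 listed, 21 were tested, 19 were lower in W1118 and 1 higher. The 21 held 9 distinct sets of counts, since 16 copies shared their counts with another copy, so members are not separate measurements. His1:CG33834 stood at 15.8 and 9.61 CPM in attp2 with no count in W1118, at least 44.1-fold lower. His4:CG33895 stood at 8.34 and 9.97 CPM, and was at least 31.8-fold lower. The exception, His2B:CG33868, rose from 0.649 and 1.19 to 3.86 and 4.74 CPM. Summed over all listed copies, the level was 155 and 165 CPM in attp2 and 5.92 and 7.96 in W1118. Because near-identical copies can lose or trade reads in counting, levels of single copies are uncertain, and with a filter of at least 5 CPM on the mean of the 12 libraries no copy was tested.

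Genes of translation and respiration leaned lower in W1118. Of 88 cytoplasmic ribosomal protein genes, 85 were tested, 61 were lower and 8 higher, with a median log2 of -0.82. RpS7 stood at 4407 and 4927 CPM in attp2 and 940 and 908 in W1118 (log2 -2.34, SE 0.11, adjusted p = 6.04e-09, edgeR). RpL24 fell from 1020 and 980 to 240 and 233 CPM, and RpL36 from 1456 and 1693 to 327 and 315. Against them, RpS28b rose from 304 and 318 to 1031 and 1060 CPM, RpL41 from 674 and 785 to 1640 and 1942, and RpLP2 from 481 and 433 to 971 and 901. Subunits of 1 particle thus passed in opposite directions. Of 61 tested subunits of the respiratory chain and ATP synthase, 33 were lower and 12 higher (median log2 -0.54). ND-15 (listed as CG11455), of complex I, fell from 662 and 611 to 111 and 107 CPM, and ND-13A (listed as CG8680), also of complex I, from 37.2 and 46.3 to 5.14 and 5.36. Of 72 mitochondrial ribosomal protein genes, 34 were lower and 10 higher. The 10 became 5 or 6 without attp2 replicate 1 or either W1118 library. Tpi, a glycolytic enzyme gene, fell from 327 and 338 to 71.5 and 66.1 CPM, and of 13 glycolysis genes 6 were lower and 3 higher. The proteasome list held 9 higher (30%) and 10 lower (33.3%) of 30 tested, against 25.2% and 30.3% of all tested genes. Fewer of its genes were lower without either W1118 library. With the trend with transcript length removed, the list held 13 higher and 6 lower. Its subunit genes Prosalpha5, at 55.4 and 57.5 against 152 and 160 CPM, and Pros45, at 51.5 and 45 against 108 and 89.7, were among the higher.

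These lists hold short transcripts, and the differences moved with transcript length. Among genes whose longest annotated transcript was 501 to 1000 bases, 15.5% passed higher in W1118 and 42% lower (1011 tested, median log2 -0.37). Among those over 4000 bases, 41.3% passed higher and 14.8% lower (1693 tested, median 0.24). In the comparison of mutant with knockdown the slope ran the other way, from a median of 0.21 to -0.19 in the same length classes. The median longest transcript was 877 bases for the tested ribosomal protein genes and 1164 for the chorion genes. With each library's trend with length taken out, an alternative chosen after seeing the data, 4748 genes passed, 2333 higher and 2415 lower. The ribosomal proteins were then 17 higher and 48 lower, with a median log2 of -0.53. Subunits of the respiratory chain were 19 and 23, mitochondrial ribosomal proteins 19 and 24, and glutathione S-transferases 7 and 7. Chorion genes were 2 higher and 11 lower (median -1.24), vitelline membrane genes at 8 and 2 (0.64), P450 genes at 8 and 17, and histone copies at 1 and 19. What sets the relation with length was not tested.

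**Figure D4:**
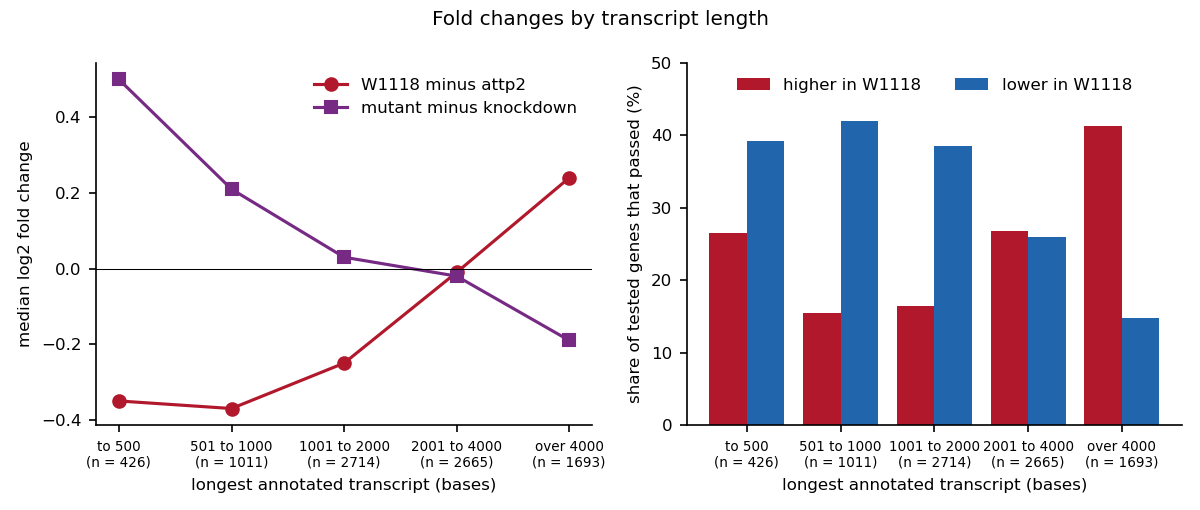
Left, median log2 difference of genes in 5 classes of longest annotated transcript, for W1118 minus attp2 and for mutant minus knockdown. Right, share of each class that passed higher or lower in W1118, in percent. The W1118 median goes from -0.35 in the shortest class to 0.24 in the longest, and the mutant median from 0.50 to -0.19.

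Of 24 tested fat body genes, 7 (29.2%) were lower in W1118 and 1 (4.17%) higher, against 30.3% and 25.2% of all tested genes, so the lower share was near that of all genes. The median log2 was -0.80, or -0.21 with genes that had no count in a group set at their bound. Miox (listed as CG6910), an enzyme of inositol breakdown, stood at 30.5 and 25.8 CPM in attp2 and 1.29 and 1.07 in W1118. Adh, alcohol dehydrogenase, fell from 161 and 136 to 54 and 53.6 CPM, and the lipid droplet gene Lsd-1 from 13 and 11.8 to 1.29 and 1.84. Tsf1, which carries iron in hemolymph, stood at 3.62 and 2.1 CPM with no count in W1118, at least 9.94-fold lower. The 5 fat body markers summed to 225 to 262 CPM in attp2 and 127 to 129 in W1118. Of these 5, 2 passed lower, Adh and Tsf1, and 0 higher. The marker apolpp (listed as Rfabg) stood at 94 and 83.1 CPM against 72.8 and 75.6, and did not pass. The part of adhering fat body in these differences was not tested. The higher count was 0 without either W1118 library and 2 without attp2 replicate 1.

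Of 17 tested genes of hemocytes, the blood cells, and of basement membranes, 11 were lower and 2 higher. Without attp2 replicate 1 the lower count was 6. The collagen gene vkg fell from 285 and 246 to 151 and 165 CPM. proPO-A1, a prophenoloxidase gene of crystal cells, stood at 2.22 and 0.915 CPM against 0 and 0.153, a count ratio of 16.3 with a 95% counting interval from 2.74 to 663. The 6 hemocyte markers summed to 4.03 to 8.71 CPM in attp2 and 1.22 to 1.8 in W1118, with He at 0 in all 4 libraries, and their part was not tested. Of 11 tested genes of the reproductive tract, 7 were lower and 1 higher, or 6 and 0 with the length trend removed. Ilp8, an insulin-like peptide that mature follicle cells make, stood at 151 and 216 CPM in attp2 and 37.3 and 42.4 in W1118. Markers of oviduct and spermatheca summed to 27.7 to 56.2 CPM in attp2 and 20.7 to 21.9 in W1118.

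Germline and patterning genes went both ways. Of 33 oocyte and maternal mRNA localization genes, 14 were higher (42.4%) and 11 lower (33.3%), with a median log2 of 0.11. Over all tested genes 25.2% were higher and 30.3% lower. Hrb27C, an RNA-binding protein of oocyte mRNA localization, rose from 1373 and 1164 to 3270 and 3423 CPM. osk, the determinant of germ plasm, rose from 1187 and 1072 to 1563 and 1509 CPM. The posterior determinant nos fell from 590 and 837 to 407 and 410 CPM, and the anterior determinant bcd from 132 and 148 to 86.7 and 80.7. The maternal cyclin gene CycB fell from 5229 and 4204 to 2529 and 2702 CPM. Of 28 follicle cell patterning genes, 10 were higher and 5 lower, and with the length trend removed 9 and 9. Dl, the Notch ligand that the germline presents to follicle cells, rose from 48.7 and 44.6 to 139 and 148 CPM. A pair of low genes fell: the cell death gene rpr from 6.86 and 5.22 to 1.03 and 0.306 CPM, and Dro, an antimicrobial peptide gene, from 6.49 and 7.23 to 1.03 and 0.306.

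Most genes that passed on chromosome 4, the small and largely heterochromatic chromosome, were higher in W1118. Of its 72 tested genes, 41 (56.9%) were higher in W1118 and 5 (6.94%) lower, with a median log2 of 0.57. On the large arms the median lay between -0.12 and -0.04. Crk, an adaptor protein gene of chromosome 4, rose from 39.2 and 59.2 to 169 and 177 CPM (log2 1.81, SE 0.18, adjusted p = 3.01e-06, edgeR). CR43361, a noncoding gene there, went the other way, with 2.69 and 4.03 CPM in attp2 and no count in W1118, at least 11.7-fold lower. Over the alternatives, 29 to 42 genes of the chromosome were higher and 2 to 9 lower. The lower count was 2 without attp2 replicate 2 or either W1118 library.

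Genes next to centromeres were also listed, as the 30 tested genes nearest the centromere on each of 5 large arms. Together 62 of 150 (41.3%) were higher and 36 (24%) lower, with a median log2 of 0.26. Without W1118 replicate 2 the lower count was 21. The arms differed: on 3L 18 were higher and 3 lower, whereas on X 6 were higher and 11 lower. A run of 6 neighbours beside a centromere was higher throughout, by 1.01 to 1.65 on the log2 scale. It held Stlk, at 30.6 and 44.5 against 92.6 and 105 CPM, and CG17486, at 33.4 and 52.3 against 122 and 146. All 6 genes of the run were higher in the mutant than in the knockdown as well.

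The mutant and knockdown libraries gave a separate measurement, since that comparison uses none of the 4 wild-type libraries. Setting the knockdown with attp2 and the mutant with W1118 is an assumption, which the labels do not state. In the knockdown and in the mutant nxf2 was reduced by different means. Between them 4816 genes passed (55.8%), 2314 (26.8%) higher in the mutant and 2502 (29.0%) lower. Of the genes higher in W1118, 1263 were higher in the mutant, which is 58.1% of the W1118 list and 54.6% of the mutant list. Of the genes lower in W1118, 1591 were lower in the mutant, 60.8% and 63.6% of the lists. Genes passing in opposite directions numbered 179 and 120. Of the 1711 genes at least 2-fold apart between the stocks, 1183 (69.1%) passed in the same direction in the mutant and 83 in the opposite one. Without scaling factors the mutant comparison held 2813 higher and 1952 lower, as its median moved from -0.02 to 0.11.

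On the first 2 principal components of all 12 libraries, with 45.1% and 22.7% of the variance, attp2 and the knockdown lay together. The attp2 libraries were at -47.2 and -48.8 on the first and the knockdown at -47.3 and -47.5. W1118 lay at -12.5 and -11.4 and the mutant at 4.07 and -0.0642, and on the second component these 4 were at -46.3 to -35.2. The mutant therefore shared its side of the second component with W1118.

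The size of the stock difference passed as different between the pairs for 2331 genes (27.0%). GstD1 was among the clearest: at 369 and 355 CPM in the knockdown and 320 and 398 in the mutant, it did not differ detectably (log2 -0.01, adjusted p = 0.937, edgeR). The difference of differences was -3.85 (adjusted p = 1.89e-08, edgeR). GstE12 was at 18.2 and 22.3 in the knockdown and 21.2 and 23.2 CPM in the mutant, and Cyp6a17 at 17.7 and 16.3 and 17.5 and 13.2. So the low levels of these 3 genes were seen in W1118 and not in the mutant. By contrast RpS7, at 4278 and 4939 against 1161 and 1270 CPM, and Cp38, at 16221 and 18006 against 3721 and 5946, fell in both pairs. For piwi, with 726 and 1493 CPM in the knockdown and 309 and 305 in the mutant, the difference of differences was -0.32 and did not pass. Of 12 chorion genes lower in W1118, 9 were also lower in the mutant. Of 9 vitelline membrane genes higher in W1118, 5 were lower in the mutant, Vml among them at 2494 and 2292 against 955 and 914 CPM. Of chromosome 4 genes, 53 were higher in the mutant and 3 lower (median log2 0.78).

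Across all 12 libraries at once, 17 genes were over 2-fold higher in both W1118 libraries than in every other library, Dfd, aly, Ih and Uhg1 among them, and 30 were over 2-fold lower. The 30 held GstD1, GstE12, GstD9, Cyp6a17, CG42240 and w. For w the mutant held 0.559 and 0.26 CPM, around the W1118 limit of 0.288 CPM, so those groups cannot be told apart. For attp2, 9 genes were over 2-fold above every other library, including Miox and Ilp8, and 0 were below. In attp2 and the knockdown together, 28 genes were over 4-fold above every other library, with Ldh, h-cup, CG6225 and w, and 5 were below, with CG18808. These counts describe levels and carry no test.

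**Figure D5:**
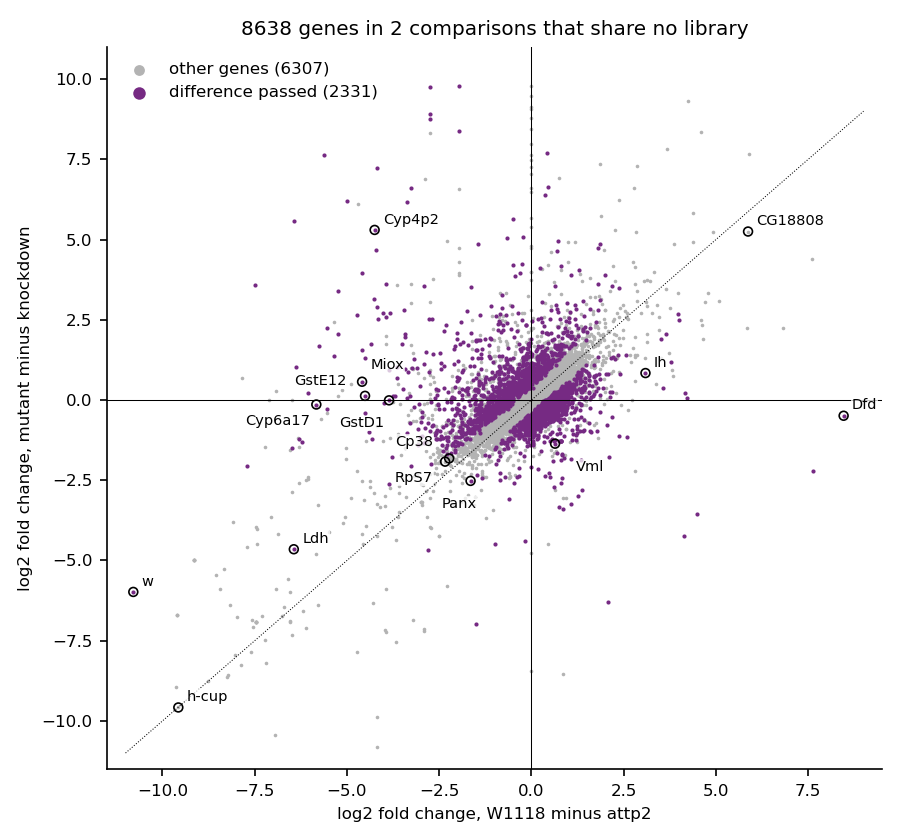
Log2 difference of each tested gene between W1118 and attp2 (horizontal) and between mutant and knockdown (vertical), with genes whose difference between the pairs passed in purple. The dotted line marks equal differences. RpS7, Cp38, CG18808 and h-cup lie near it, GstD1, GstE12, Cyp6a17 and Dfd near the horizontal line at 0, and Vml on the opposite side. Fitted values of genes with no count in a group depend on the small count the fit adds.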

How the data were processed

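The deposited file is a table of gene read counts, and per the submitters' processing notes the authors used bcl2fastq 1.8.4, cutadapt 1.16, STAR 2.5.2a, featureCounts 1.6.1 and the dm3 build. For the libraries with tethered Panx the notes do not list the counting tool. The sources used here do not state the annotation, the strand setting or the treatment of reads with several matches. Gene names are those of the table. Of 15446, 11696 matched RefSeq gene records by symbol and 3401 by synonym. Those records served for names, arms and neighbours. An Ensembl BDGP6 annotation served for transcript lengths, which 98.5% of tested genes had.

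All 12 libraries were fitted in 1 model of 6 groups with edgeR 4.0.16 in R 4.3.3 (robust quasi-likelihood test, TMM scaling, filterByExpr), with p-values adjusted by Benjamini-Hochberg over 8638 genes. The model leaves 6 residual degrees of freedom. CPM and log2 values were computed from the deposited counts. Alternatives were DESeq2 1.42.0, other scalings and filters, a replicate block, fewer libraries, and removal of each library's trend with transcript length. On simulated counts for this comparison over 8638 genes, 36% of genes changed 1.5-fold, 78% of those raised 2-fold, 76% of those lowered 2-fold and 94% of those raised 4-fold passed, with 9 false calls.

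Genes and lists were chosen with earlier results of these data known. Genes named were nxf2, Panx, piwi, w, y and v, the 12 largest rises and falls at 10 CPM or more with separate groups, and the 3 members of each of 33 lists with the smallest p, giving 115 genes. A further 33 were named after their values were seen, and the text gives some of these. Intervals and limits cover counting error only. Sequences were not used here, and gene positions served to order genes along the arms but are not printed. Transposons were not analysed here.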

Additional observations from a re-analysis of the deposited data

Results flagged for a closer look

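The difference between W1118 and attp2 was set against that between the nxf2 mutant and the knockdown, and 2331 genes passed the test of the difference itself (edgeR's quasi-likelihood test, adjusted p under 0.05). The values here are W1118 minus attp2 less mutant minus knockdown, on the log2 scale, for the 49 named genes that passed. For genes with no count in a group they depend on the small count that the fit adds. With the trend in transcript length taken out, 40 of the 49 still passed and 9 did not: w, Dh44, Ldh, wde, sov, RpS28b, Prosalpha5, Tpi and Stlk.

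Of the stock marker and the study's genes, the value was -4.80 for w and 0.87 for Panx (CG9754). Of the widest rises it was 8.95 for Dfd, 9.83 for Dh44, 1.50 for Uhg1, 2.25 for Ih, 1.58 for snoRNA:Me28S-G1083d and 1.30 for CR40354. For Ldh (ImpL3) it was -1.78.

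Of the detoxification genes, the value was -3.85 for GstD1, -4.65 for GstE12 (CG16936), -2.93 for GstD9, -6.67 for GstD2, -5.69 for Cyp6a17, -7.46 for Cyp9b2 and -9.55 for Cyp4p2. The mutant libraries held 71.2 and 63.1 CPM of Cyp4p2, against 1.15 and 2.24 for the knockdown, 2.22 and 2.01 for attp2 and 0 and 0.153 for W1118. For CG42240 it was -3.81.

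Of genes of other tissues, the value was -5.16 for Miox (CG6910), -1.46 for Ilp8, -11.05 for Tsf1, -0.87 for Adh, -4.04 for Lsd-1, -1.01 for vkg and -6.53 for proPO-A1. For the cell death gene rpr it was -4.22, and for the antimicrobial peptide gene Dro -5.26.

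Of the eggshell and yolk genes, the value was 1.14 for Cp7Fc, 1.95 for Vm26Ac, 1.09 for Vm32E, 1.88 for Vm34Ca, 1.82 for psd, 1.99 for Vml, 1.54 for Vm26Aa, 2.05 for Vm26Ab, 1.74 for ndl and 1.69 for Yp3. All 10 named were positive, while their separate comparisons went in either direction. Among chorion genes not named, Cp7Fa had -1.51 and CG13084 -1.73, and both passed.

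Of silencing and export genes, it was 0.56 for wde, 0.99 for sov (CG14438) and 0.91 for Ars2. For RpL24 it was -0.79, for RpL36 -1.03, for RpS28b -0.69, for RpLP2 0.80, for Prosalpha5 -0.41, for ND-13A (CG8680) -2.31 and for Tpi -0.59. Near the centromere Stlk had -0.74, on chromosome 4 CR43361 had -5.64, and osk had 0.63.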

How the results depend on the processing

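For W1118 minus attp2, the count of 4790 genes stayed within 1.5 times under all 12 alternatives. DESeq2 gave 2097 higher and 2173 lower, and leaving out 1 library gave 1607 to 2213 higher and 1890 to 2645 lower. Replicate numbers did not pair the libraries: deviations of the same number correlated at -0.02 between attp2 and W1118, and the fit with the replicate block gave 2185 higher and 2573 lower. The test of the difference between the pairs moved more. Its 2331 genes became 1367 (706 higher, 661 lower) with the length trend removed, which was chosen after seeing the data, and 1518 (662 higher) with the 8 libraries alone. Without W1118 replicate 1 they were 1425 (712 higher, 713 lower) and without W1118 replicate 2 1287 (649 higher, 638 lower). Without attp2 replicate 1 they were 3294 (1464 higher, 1830 lower). The cause was not tested. Of the 144 named genes that passed, 138 passed under every alternative, 6 lost the call under some (mei-P26, Unc-89, alphaTry, Spn43Ab, Cp18 and Cp7Fb) and none reversed. Vm26Aa passed without attp2 replicate 2, at -0.29. The W1118 libraries were the shallowest of the 4, which limits genes with few counts there.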

Other observations

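Other gene groups were compared between W1118 and attp2 in the same fit, with 25.2% of all tested genes higher and 30.3% lower. Of 27 tested genes of ecdysone synthesis and response, the steroid pathway of follicle cells, 10 were higher and 4 lower (median log2 0.08), and with the length trend removed 8 and 9. The lower count was 2 without W1118 replicate 2. Of 35 tested genes of the early germline and meiosis, 10 were higher and 9 lower (median -0.07), and with the length trend removed 6 and 9. Of 27 tested genes of DNA damage and apoptosis, 6 were higher and 5 lower, with 3 lower without W1118 replicate 1. Of 23 tested heat shock genes, 3 were higher and 3 lower, so 17 did not pass. Of 20 tested antimicrobial and immune genes, 3 were higher and 6 lower (median -0.32), and 17 of the 54 listed had no count in these 4 libraries.

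Of 29 tested spliceosomal snRNA genes, many of which are near-identical copies that can share reads, 7 were higher and 13 lower (median log2 -0.48). Of 14 tested genes of the serpin, SP, SPE and SPH name series, 2 were higher and 3 lower, and the higher count was 1 without any 1 of the 4 libraries. Of 26 tested muscle genes, 4 were higher and 2 lower. Those counts were 7 higher without attp2 replicate 1, 2 higher and 5 lower without attp2 replicate 2, and 1 of each without W1118 replicate 2. With the length trend removed they were 2 higher and 4 lower. The 6 muscle sheath markers summed to 127 to 252 CPM in attp2 and 234 to 235 in W1118. Of 8 tested testis genes, 1 was higher, or 2 without attp2 replicate 1, and 2 were lower. Of 8 tested midgut enzyme genes, 1 was higher and 2 lower, with 4 lower without attp2 replicate 2 and 1 without W1118 replicate 2. The 6 midgut markers summed to 1.65 to 5.01 CPM in attp2 and 0 to 0.153 in W1118. All 37 mitochondrially encoded genes listed had no count in these libraries.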
